A study of Mus musculus with 8 samples.

Results

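The enzymes described here modify foreign and endogenous small molecules, and they were compared in dorsal skin of mouse embryos that carry or lack the glucocorticoid receptor (GR), a steroid-activated transcription factor encoded by Nr3c1. The members are 98 of the 18194 genes measured: cytochrome P450 genes of families Cyp1, Cyp2 and Cyp3, carboxylesterases (Ces), flavin-containing monooxygenases (Fmo), glutathione transferases of the alpha, mu, omega, pi and theta classes (Gst), UDP-glucuronosyltransferases (Ugt) and sulfotransferases (Sult). They were chosen by gene symbol, not by their values, though earlier results of these data were known. A member needed a probe set annotated to it alone, and Sult2b1, a cholesterol sulfotransferase of the skin barrier, was left out by the same rule. The wild-type group (GR+/+) held 4 arrays, numbered 4, 6, 28 and 29 in the labels, and the GR-null group (GR-/-) held 4, numbered 5, 17, 25 and 26. All came from littermates of the B6D2/F1 strain taken by cesarean section at embryonic day 18.5. The disrupted part of the gene, the litters and whether each array came from a different embryo are not given in the labels, so the p-values measure the spread between these samples.

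Enzymes of this kind act in steps. P450 and FMO enzymes add oxygen to a substrate, carboxylesterases cleave its ester or amide bonds, and transferases then attach glutathione, glucuronic acid or sulfate, after which transporters export the conjugate. The liver holds most of these activities, while skin uses a smaller set of them against chemicals at the body surface, oxidised lipids and its own signalling lipids and hormones. Glucocorticoids are known to raise several of these genes in liver.

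Each value is the log2 expression of 1 probe set, a group of short probes against a transcript, read at the probe set of the gene with the highest mean over the 8 arrays. Differences are GR-null minus wild-type, with limma's standard error (SE), and a gene was called past the threshold at an adjusted p below 0.05 over all 18194 genes. Nr3c1 itself was lower in GR-null skin at 3 of its 6 probe sets, with differences of -0.84, -1.86 and -2.70 log2, and was not past the threshold at the other 3. All 6 keratinocyte markers and all 6 dermal fibroblast markers lay above the array median on all 8 arrays, and 1 of these 12 passed the threshold, Trp63, higher in GR-null skin by 0.60 log2 (adjusted p = 0.0372). Across probe sets, wild-type arrays correlated with each other at 0.987 to 0.993, GR-null arrays at 0.978 to 0.994. Among markers of other tissues, 5 of 16 from skeletal muscle were lower in GR-null skin. The mean of the muscle list was 12.58 to 12.68 log2 in wild-type arrays, 12.61 in GR-null 17 and 11.69 to 11.998 in the other GR-null arrays. The melanocyte list had 2 of 6 members higher and group ranges of 7.98 to 8.36 against 8.58 to 9.13 log2. Single members were lower in the macrophage, mast cell, endothelial and erythroid lists. The adipocyte list had 0 of its 10 measured members past the threshold and ranged from 7.86 to 9.64 log2 in wild-type and from 7.60 to 9.38 in GR-null arrays. Of 9 measured hepatocyte markers 0 were past the threshold, and Ttr alone of them lay above the array median on all 8 arrays. That list's mean was 5.27 to 5.28 log2 in wild-type and 5.33 to 5.50 in GR-null arrays, ranges that did not overlap, and Alb was highest in GR-null 17, at 7.30 log2, where the other 7 arrays read 5.54 to 6.002.

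In GR-null skin 5 of the 98 members fell and 2 rose. Ces2f, a carboxylesterase, Fmo2, a flavin-containing monooxygenase, Gsto1, an omega-class glutathione transferase, Sult1a1, a phenol sulfotransferase, and Cyp2s1, an extrahepatic P450, were lower. The P450 genes Cyp2f2 and Cyp2g1 were higher. The 7 called members were 7.14% of the members, beside 2.96% of all genes. By direction, 5.10% of members fell against 1.56% of all genes, and 2.04% rose against 1.40%. Both groups' values lay fully apart in 16 members, or 16.3%, beside 13.0% of all genes. Of these, 11 were lower (11.2%, beside 6.30%) and 5 were higher (5.10%, beside 6.69%). At an unadjusted p below 0.05 limma gave 22 members, 22.4% beside 21.6%, so with both directions together the share was near the background. Of the 22, 15 were lower (15.3%, beside 11.1%) and 7 were higher (7.14%, beside 10.5%). The median log2 fold change over the 98 members was 0.01, beside 0.00 over all genes. In bulk skin, fewer cells of a type and less RNA per cell cannot be told apart.

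The count of called members varied with the arrays. Without wild-type 4, 6, 28 or 29 it was 2, 3, 2 and 1, beside 1.62%, 1.76%, 0.780% and 0.572% of all genes. Without GR-null 5, 25 or 26 it was 1, 1 and 2, beside 1.02%, 0.434% and 0.846%. Without GR-null 17 it rose to 13, beside 9.01% of all genes in that fit, and included all 7. With the mean of the muscle list as a covariate 2 were called, Fmo2 and Cyp2g1, beside 0.621% of all genes. GR-null 17 alone among the GR-null arrays had a muscle level within the wild-type range. In the other arrays muscle level followed genotype, so the fit with this covariate cannot tell the 2 apart. Called genes went from 539 to 113 in it. A call that ended in that fit does not assign the difference to muscle. The differences from that fit lean on GR-null 17, the GR-null array with a wild-type muscle level. This holds also for the 2 calls that stayed.

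**Figure D1:**
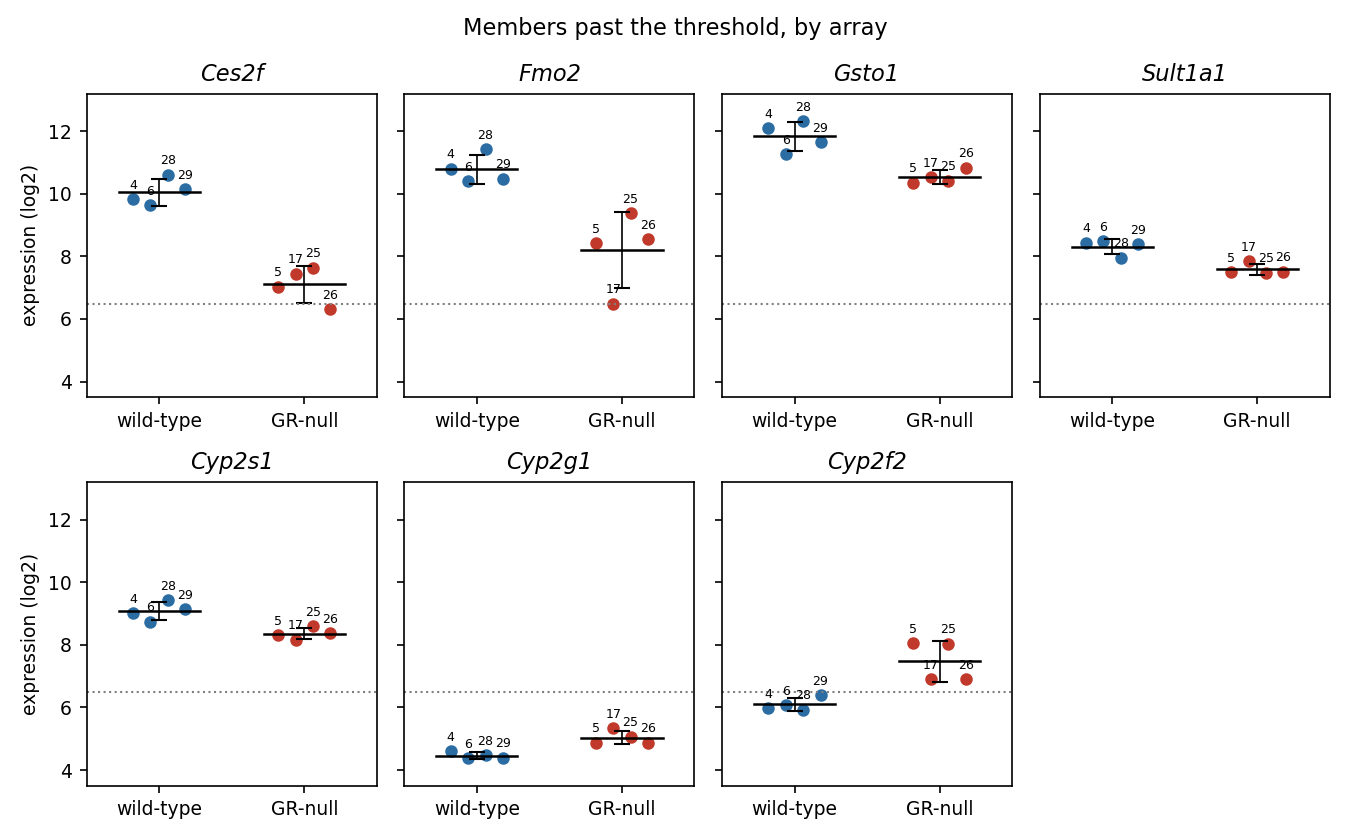
Expression (log2) of the 7 members past the threshold, by array. Points are arrays with their label numbers, lines are group means, error bars are SD (n = 4), and the dotted line is the mean of the array medians. In every panel the GR-null points lie on one side of the wild-type points.

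The promoters of the called members are shown because these are the genes whose levels differed between embryos with and without a DNA-binding receptor. Each sequence is the 250 bases before the RefSeq transcription start in GRCm38.p6, read 5′ to 3′ on the gene's strand. Searched on both strands were AGAACA, a single hexamer of the glucocorticoid response element, the full element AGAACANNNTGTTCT, GCGTG, the core bound by the aryl hydrocarbon receptor, and TGACNNNGC, the antioxidant response core. The hexamer is contained in the full element. Capitals mark matches.
Ces2f (chr8:104947106-104947355, plus strand): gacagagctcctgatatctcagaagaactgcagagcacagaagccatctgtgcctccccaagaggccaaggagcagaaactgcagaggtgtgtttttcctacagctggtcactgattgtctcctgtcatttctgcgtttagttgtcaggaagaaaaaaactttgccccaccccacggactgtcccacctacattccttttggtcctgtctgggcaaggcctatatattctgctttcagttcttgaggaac
Fmo2 (chr1:162898759-162899008, minus strand): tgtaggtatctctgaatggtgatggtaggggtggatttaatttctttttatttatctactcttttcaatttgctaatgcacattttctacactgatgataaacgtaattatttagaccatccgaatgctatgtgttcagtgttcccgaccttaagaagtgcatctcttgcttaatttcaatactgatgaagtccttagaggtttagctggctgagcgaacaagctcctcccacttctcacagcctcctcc
Gsto1 (chr19:47854723-47854972, plus strand): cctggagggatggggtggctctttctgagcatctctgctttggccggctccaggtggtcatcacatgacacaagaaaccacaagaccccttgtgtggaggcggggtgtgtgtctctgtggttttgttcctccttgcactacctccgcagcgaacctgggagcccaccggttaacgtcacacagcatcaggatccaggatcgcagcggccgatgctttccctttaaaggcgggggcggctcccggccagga
Sult1a1 (chr7:126676419-126676668, minus strand): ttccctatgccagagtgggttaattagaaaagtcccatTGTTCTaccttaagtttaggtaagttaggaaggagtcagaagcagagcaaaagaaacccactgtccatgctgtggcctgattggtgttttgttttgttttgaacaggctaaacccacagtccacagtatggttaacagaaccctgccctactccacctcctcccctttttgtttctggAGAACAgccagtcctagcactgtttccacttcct
Cyp2s1 (chr7:25816526-25816775, minus strand): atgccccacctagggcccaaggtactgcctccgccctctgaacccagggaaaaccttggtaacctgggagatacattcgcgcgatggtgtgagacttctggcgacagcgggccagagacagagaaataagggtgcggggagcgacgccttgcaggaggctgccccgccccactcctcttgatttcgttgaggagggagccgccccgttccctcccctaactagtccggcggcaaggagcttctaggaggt
Cyp2f2 (chr7:27119705-27119954, plus strand): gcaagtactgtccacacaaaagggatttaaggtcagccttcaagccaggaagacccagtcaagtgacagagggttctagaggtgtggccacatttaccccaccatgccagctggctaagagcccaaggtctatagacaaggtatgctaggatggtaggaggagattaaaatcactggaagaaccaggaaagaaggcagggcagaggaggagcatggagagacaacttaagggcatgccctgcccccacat

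Among these 6 sequences the matches were both of AGAACA and both in Sult1a1, at bases 212 to 207 before the start on the opposite strand and at bases 34 to 29 on the gene's own strand. Fmo2 has another listed start, before which AGAACA occurs at bases 125 to 120. AGAACA was found in 16.1% of all 32851 windows of this length and in 20 of the 95 windows of members, which covered 82 members. The full element was found in 3 windows of all genes and in 0 of the members'. GCGTG was found in 28.2% of all windows and in 15 of the members', and TGACNNNGC in 10.2% and in 3. A match is a description of letters and not a site of binding, and the sequences hold nothing about elements farther away. Cyp2g1 was not among the sequences.

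Most members lay below the middle of the array, many of them near its floor. The median over all probe sets was 6.46 to 6.52 log2 on the 8 arrays. In all 8 arrays 17 members lay above it, or 17.3%, beside 59.1% of all genes, and 72 members lay below it, or 73.5%, beside 33.6%. The 17 were the P450 genes Cyp2b10, Cyp2b19, Cyp2c29 and Cyp2s1, the esterases Ces2g and Ces5a, Fmo1 and Fmo2, the glutathione transferases Gsta2, Gsta4, Gstm1, Gstm2, Gstm5, Gsto1 and Gstp1, and the sulfotransferases Sult1a1 and Sult5a1. The other 9 crossed the median between arrays: Ces2f, Cyp1b1, Cyp2d22, Cyp2f2, Gsta3, Gstm3, Gstm4, Gstt1 and Gstt2. The number above it per array was 20 to 22 in wild-type and 20 to 23 in GR-null skin. A level also depends on how well its probes bind, and a value below the median is not a call of absence. RMA narrows differences near the floor, so a small difference in the dim members may be an underestimate.

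Called members were mostly among those with higher levels. Of the 21 members whose mean over the 8 arrays was above the median of such means, 6 were called, beside 4.17% of the 11429 genes of that kind. Of these 21, Cyp2f2 lay above the median in the GR-null arrays alone. Of the 77 members below, 1 was called, Cyp2g1, or 1.30% beside 0.916% of such genes. The median log2 fold change was -0.24 over the 21, beside 0.00 over the 11429. The median size of the difference, leaving out its sign, was 0.60 log2 in the 21 and 0.17 in the 11429, against 0.09 in all 98 members and 0.12 in all genes.

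**Figure D2:**
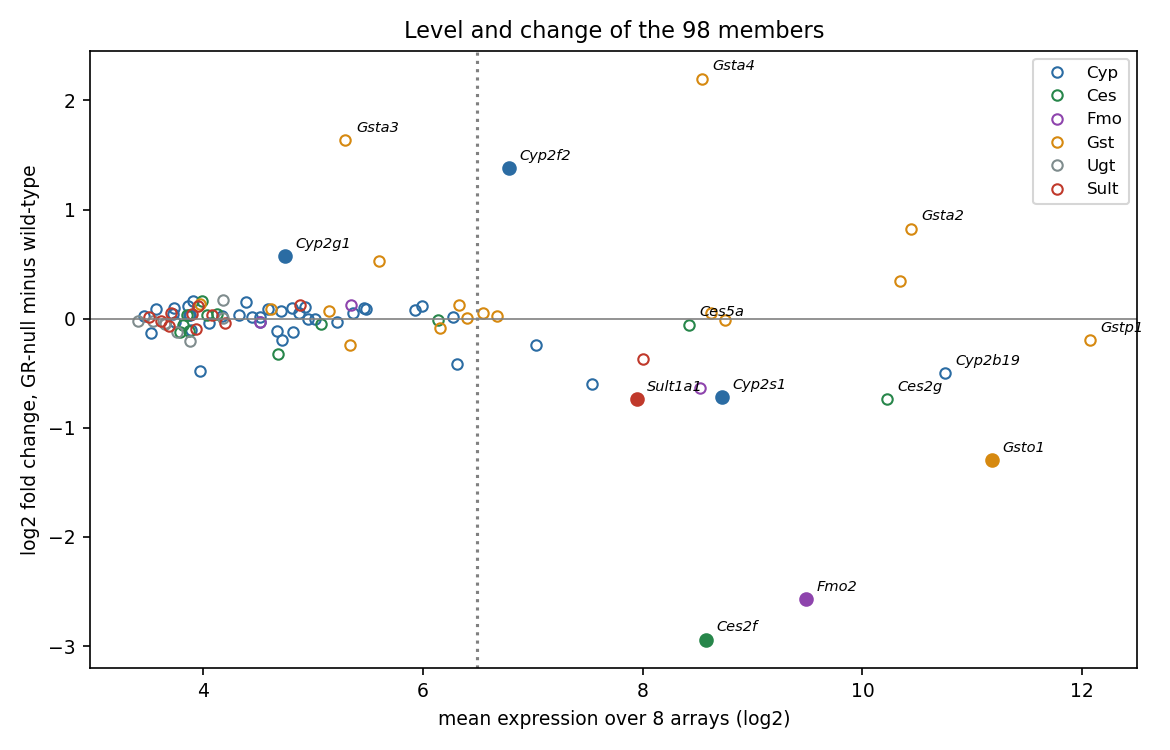
Log2 fold change (GR-null minus wild-type, vertical axis) of each of the 98 members against its mean expression over 8 arrays (log2, horizontal axis), coloured by enzyme group. Filled points are past the threshold, and the dotted line is the mean of the array medians. Most members lie left of that line within a narrow band around 0. Ces2f, Fmo2 and Gsta4, with the largest differences, lie to its right, while Gsta3, at 1.64 log2, lies to its left.

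The P450 genes are the first oxygen-adding group. Of 43 measured, 4 lay above the array median on all arrays. In the Cyp1 family, which the aryl hydrocarbon receptor induces, 0 of 3 members were past the threshold, and the family's log2 fold changes ran from 0.01 to 0.07. Cyp1b1, which also hydroxylates oestrogens, read 6.33, 5.95, 5.97 and 6.82 in the wild-type group and 5.80, 7.46, 6.33 and 5.55 in the GR-null group, each in the order of label numbers given above. Its groups overlapped, and its 95% interval for the difference was wide, from -0.86 to 0.89 log2. Cyp1a2 differed by 0.07 log2 (-0.14 to 0.28), with both groups near the floor.

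The Cyp2 family, with 35 members, held 2 that rose and 1 that fell, and its median log2 fold change was 0.03. Cyp2s1, which metabolises retinoids and eicosanoids in epithelia, read 9.002, 8.74, 9.42 and 9.14 in wild-type and 8.31, 8.16, 8.59 and 8.38 in GR-null arrays. All 4 GR-null values were below the lowest wild-type value. Cyp2s1 fell by 0.72 ± 0.15 log2 (1.64-fold, limma adjusted p = 0.0408, n = 4 per group). Its call held without wild-type 6 (adjusted p = 0.0349) or GR-null 17 (0.0399) and ended without each of the other 6 arrays, at 0.0726 to 0.113. It also ended with the muscle covariate (-0.89 log2, adjusted p = 0.203).

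Cyp2f2, known for activating naphthalene in the club cells of the lung, read 5.98, 6.08, 5.93 and 6.40 in wild-type, below the array medians, and 8.05, 6.90, 8.03 and 6.90 in GR-null arrays, above them. GR-null 5 and 25 were the high arrays, and GR-null 17 and 26 lay closer to wild-type. Cyp2f2 rose by 1.38 ± 0.29 log2 (2.60-fold, adjusted p = 0.0408). Cyp2g1, known from olfactory mucosa, read 4.60, 4.38, 4.48 and 4.39 in wild-type and 4.88, 5.33, 5.06 and 4.87 in GR-null arrays, all below the array medians. It rose by 0.57 ± 0.12 log2 (1.49-fold, adjusted p = 0.0380). Here GR-null 17 was the highest array, unlike in Cyp2f2. Both calls held without GR-null 17 (adjusted p = 0.0145 and 0.0208) and ended without each of the other 7 arrays, at 0.0508 to 0.122 for Cyp2f2 and 0.0576 to 0.122 for Cyp2g1. The fit with the muscle covariate leans on GR-null 17. In it Cyp2f2 had an adjusted p of 0.473 (0.87 log2) and Cyp2g1 one of 0.0299 (0.88 log2).

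Cyp2b19, a P450 of differentiated keratinocytes that makes epoxides of arachidonic acid, read 10.79, 10.93, 11.30 and 10.97 in wild-type and 10.63, 9.74, 10.80 and 10.82 in GR-null arrays. The groups overlapped, GR-null 17 lay lowest, and the difference of -0.50 log2 was not past the threshold (95% interval -1.03 to 0.03, adjusted p = 0.254). Cyp2b10, a target of the nuclear receptor CAR in liver, read 7.66, 7.79, 8.20 and 7.70 in wild-type and 6.93, 7.48, 7.28 and 7.27 in GR-null arrays. Its groups did not overlap, while its difference of -0.60 ± 0.15 log2 missed the threshold (adjusted p = 0.0659) and passed it without GR-null 17 (0.0319). Its other probe sets differed by -0.91 and -0.96 log2 and their groups overlapped. In the Cyp3 family, a group induced by glucocorticoids in liver, all 5 members lay below the array median in all arrays. Cyp3a13 read 3.87 to 4.59 in wild-type and 3.62 to 3.82 in GR-null arrays, without overlap, but its difference of -0.48 log2 had an adjusted p of 0.120. Cyp3a11 differed by -0.11 log2 (95% interval -0.29 to 0.08).

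In the mouse genome many of these genes lie side by side. RefSeq's gene order in GRCm38.p6 places 8 Cyp2 members in 1 run on chromosome 7, with fewer than 15 other protein-coding genes between neighbours. Their order is Cyp2s1, Cyp2b10, Cyp2b13, Cyp2b9, Cyp2b19, Cyp2g1, Cyp2a12 and Cyp2f2. All 3 called P450 genes lie in this run, with Cyp2s1, which fell, at one end and Cyp2g1 and Cyp2f2, which rose, toward the other. From Cyp2s1 to Cyp2g1, the genes in between differed by -0.60 (Cyp2b10), 0.01 (Cyp2b13), -0.11 (Cyp2b9) and -0.50 log2 (Cyp2b19), and Cyp2a12, between Cyp2g1 and Cyp2f2, by 0.12, all short of the threshold. The 10 Cyp2c members of chromosome 19 had log2 fold changes from -0.24 (Cyp2c29) to 0.10 and the 7 of Cyp2d on chromosome 15 from -0.41 (Cyp2d22) to 0.16, with 0 called in either run.

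**Figure D3:**
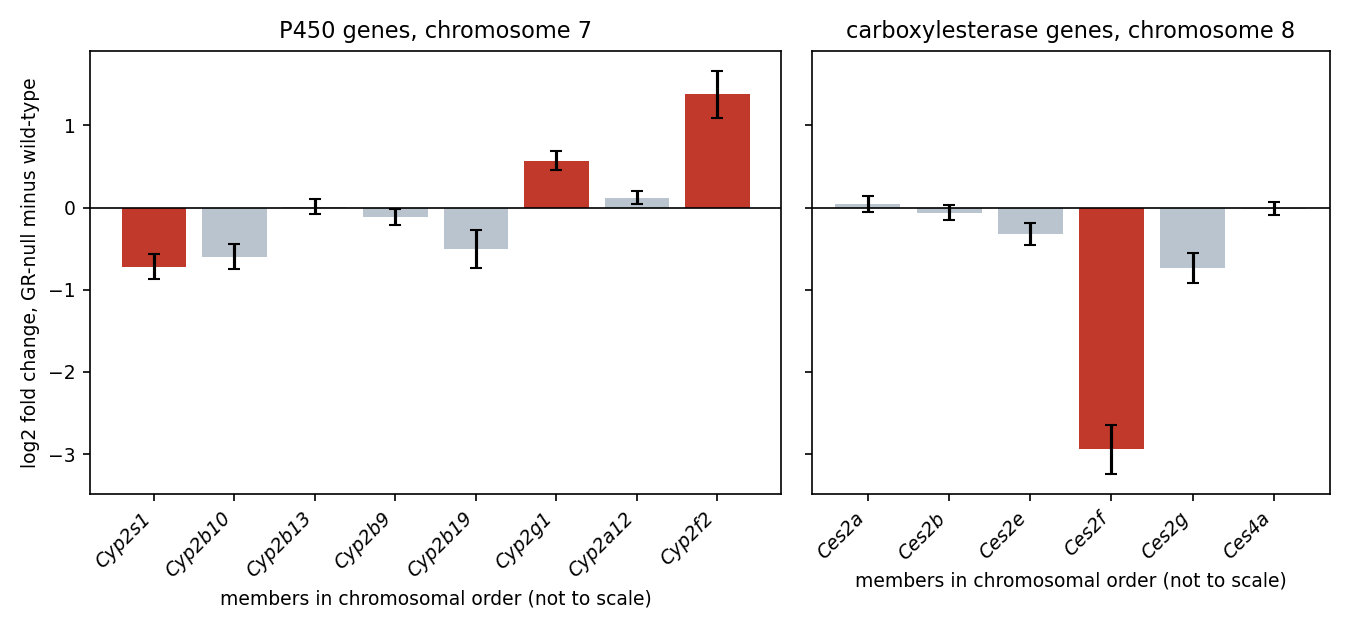
Log2 fold change (GR-null minus wild-type) of members in their chromosomal order, for a run of P450 genes on chromosome 7 and a run of carboxylesterase genes on chromosome 8. Bars are the differences, error bars are SE (n = 4 per group), and red bars are past the threshold. Cyp2s1 and Ces2f fell while Cyp2g1 and Cyp2f2 rose, and the grey bars of Cyp2b10, Cyp2b19 and Ces2g reach -0.60, -0.50 and -0.74 log2 without passing the threshold.

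The carboxylesterases held the largest difference of all members. Ces2f, of the Ces2 subfamily that hydrolyses esters of large alcohols, read 9.82, 9.64, 10.61 and 10.13 in wild-type and 7.03, 7.45, 7.64 and 6.31 in GR-null arrays. All wild-type values lay at least as high as 9.64 and no GR-null value was above 7.64. Ces2f fell by 2.94 ± 0.30 log2 (7.68-fold, limma adjusted p = 0.00440, n = 4 per group). Its call held without any 1 array, at adjusted p of 0.00337 to 0.0233, and it was the single member to hold in all 8 of those fits. With the muscle covariate its difference was -2.55 log2 with an adjusted p of 0.0738. Its other probe set, at 4.14 to 4.62 on all arrays, differed by -0.26 log2, without overlap between groups, and missed the threshold (adjusted p over all probe sets 0.123).

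The next gene along chromosome 8 among the members, Ces2g, read 10.51, 10.29, 10.84 and 10.75 in wild-type and 9.80, 9.40, 10.16 and 10.07 in GR-null arrays. Its groups did not overlap, and its difference of -0.74 ± 0.18 log2 (1.67-fold) missed the threshold at an adjusted p of 0.0628. It passed without GR-null 17 (0.0475), as it did with the Y-linked level as a covariate (0.0264). Ces2e, on the other side of Ces2f, differed by -0.32 log2 with overlapping groups. Ces2f was the 1 of 13 carboxylesterases past the threshold, and the median log2 fold change of the group was -0.06. The 6 Ces1 genes were dim on all arrays. Ces5a, read at a probe set that can take up related transcripts, differed by -0.06 log2 (95% interval -0.24 to 0.13). Its other probe sets read 4.97 to 5.50 and 4.83 to 5.17 log2, below the array median on all arrays. They differed by -0.24 log2, without overlap, and by 0.02 (adjusted p over all probe sets 0.156 and 0.940).

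**Figure D4:**
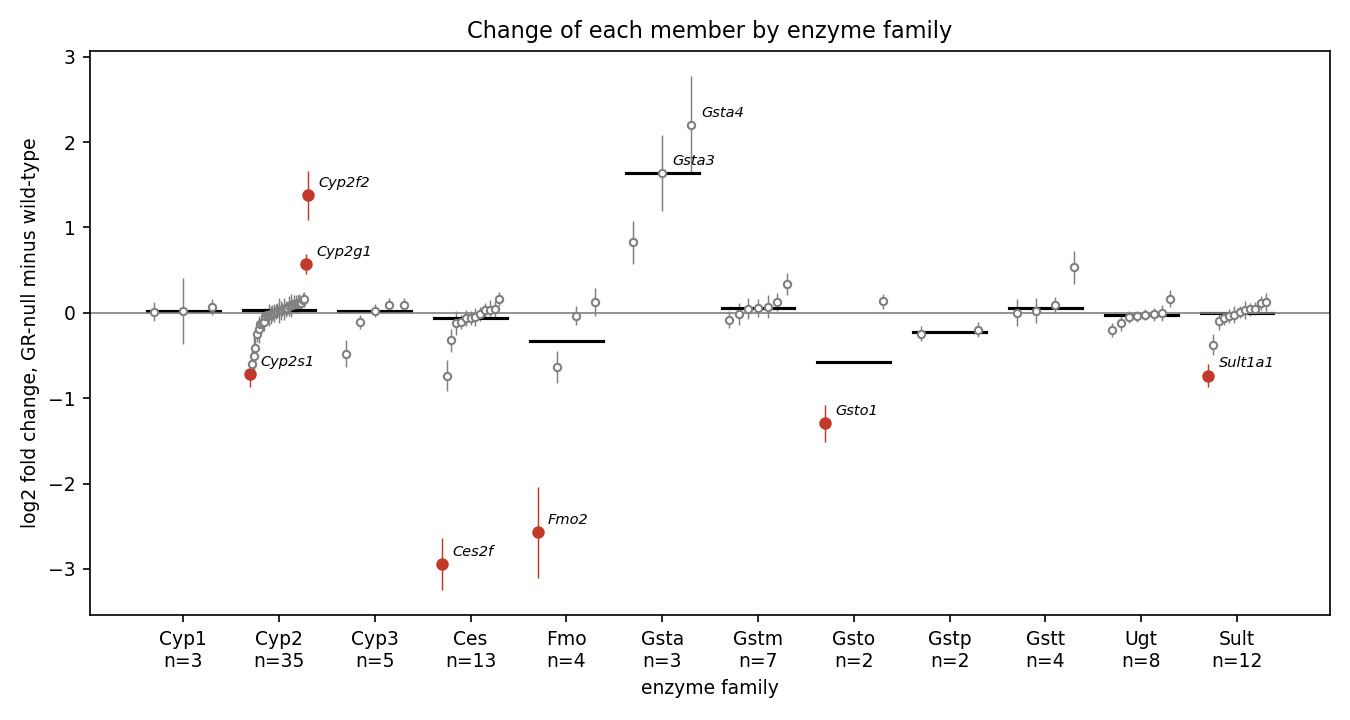
Log2 fold change (GR-null minus wild-type) of each member by enzyme family, with the number of members under each name. Points are members with their SE (n = 4 per group), red points are past the threshold, and black lines are family medians. The alpha-class transferases (Gsta) are all above 0, while single members stand apart in Ces, Fmo, Gsto, Cyp2 and Sult.

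The flavin-containing monooxygenases oxidise nitrogen and sulfur in soft nucleophiles. Fmo2, known as the lung form, read 10.80, 10.41, 11.42 and 10.47 in wild-type and 8.41, 6.49, 9.37 and 8.54 in GR-null arrays. GR-null 17 was the lowest array and GR-null 25 the nearest to wild-type. Fmo2 fell by 2.57 ± 0.53 log2 (5.94-fold, adjusted p = 0.0408). Of its 5 probe sets 3 were past the threshold over all probe sets, with differences of -2.57, -2.05 and -1.96 log2, and the others differed by -0.58 and -0.33. The call held without GR-null 17 (-1.999 log2, adjusted p = 0.00854) and ended without each of the other 7 arrays, at 0.0549 to 0.107. With the muscle covariate, where the comparison leans on GR-null 17, the difference was -4.06 log2 (adjusted p = 0.0285). The call ended with an intensity trend and robust prior.

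Fmo1 read 9.14, 8.55, 8.45 and 9.23 in wild-type and 8.38, 8.13, 8.35 and 7.96 in GR-null arrays. The groups did not overlap, but the gap between them was narrow, and the difference of -0.64 ± 0.19 log2 was not past the threshold (adjusted p = 0.101). Fmo1 and Fmo2 are neighbours among the members on chromosome 1, beside Fmo4, which lay below the array median and differed by -0.03 log2. Fmo5 on chromosome 3 differed by 0.13 log2. So 1 of 4 members fell, and the family median was -0.33.

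The glutathione transferases are grouped in classes by sequence. Of 18 measured, 1 passed the threshold. Gsto1, whose omega class reduces dehydroascorbate and mixed disulfides, read 12.10, 11.26, 12.31 and 11.65 in wild-type and 10.35, 10.53, 10.41 and 10.83 in GR-null arrays. Wild-type arrays were the more spread, and the groups did not overlap. Gsto1 fell by 1.30 ± 0.22 log2 (2.46-fold, adjusted p = 0.0227). This was read at a probe set that can take up related transcripts. The gene's other probe set, which is specific by name, differed by -0.71 ± 0.22 log2 with overlapping groups (adjusted p over all probe sets 0.0992). The call held when wild-type 6 (0.0154), GR-null 17 (0.0195) or GR-null 26 (0.0450) was left out and ended without each of the other 5 arrays, at 0.0520 to 0.0843, and with the muscle covariate (-1.34 log2, adjusted p = 0.210). Gsto2, the neighbouring gene, differed by 0.13 log2 (-0.07 to 0.34) near the floor.

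The alpha class detoxifies products of lipid peroxidation. Its 3 members, each at its probe set of highest mean, read above every wild-type array in 3 of the 4 GR-null arrays, and Gsta3 in all 4. Gsta4, which conjugates hydroxynonenal, read 7.29, 6.61, 8.61 and 7.24 in wild-type and 9.82, 8.08, 9.89 and 10.75 in GR-null arrays. GR-null 17 fell below wild-type 28, so the groups overlapped. The difference of 2.20 ± 0.57 log2 (4.59-fold) missed the threshold at an adjusted p of 0.0711. Gsta3 read 4.35, 4.47, 4.62 and 4.47 in wild-type and 6.12, 4.72, 6.27 and 7.36 in GR-null arrays, where GR-null 17 again stood next to wild-type. The Gsta3 groups did not overlap, and the difference was 1.64 ± 0.45 log2 (adjusted p = 0.0803). Gsta2 read 9.93, 9.78, 10.55 and 9.86 in wild-type and 10.93, 10.14, 11.13 and 11.22 in GR-null arrays, and its difference was 0.82 ± 0.25 log2 (adjusted p = 0.106). The other alpha-class probe sets gave smaller differences with overlapping groups. A dimmer Gsta3 probe set differed by 0.40 log2 (adjusted p over all probe sets 0.410), and a probe set naming Gsta1, Gsta2 and Gm3776 together by 0.43 (0.609), with GR-null 17 lowest in its group in both.

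With the level of Y-linked genes as a covariate Gsta4 and Gsta2 passed the threshold (adjusted p = 0.0256 and 0.0498) and Gsta3 did not (0.0586). Without GR-null 17 all 3 alpha-class genes passed the threshold, Gsta4 at 2.72 log2 (adjusted p = 0.0114), Gsta3 at 2.10 (0.00615) and Gsta2 at 1.06 (0.0141). Gstt3, of the theta class, did the same at 0.74 log2 (0.00799). With all arrays Gstt3 differed by 0.53 ± 0.20 log2 (adjusted p = 0.161), reading 5.27 to 5.44 in wild-type and 5.998, 5.24, 5.93 and 6.32 in GR-null arrays. The muscle list split the GR-null arrays in the same way. With it as a covariate the differences were 0.63 log2 for Gsta4, 0.33 for Gsta3, 0.14 for Gsta2 and -0.07 for Gstt3, with adjusted p of 0.759 to 0.917. The sebaceous gland list also did so: its mean was 6.86 to 6.89 in wild-type arrays, 6.87 in GR-null 17 and 7.51 to 7.77 in the other GR-null arrays, with 0 of 6 measured markers past the threshold. Of that list, Far2, a fatty alcohol reductase, read 6.56 to 7.51 in wild-type arrays, 6.96 in GR-null 17 and 9.88 to 11.31 in the others. Dgat2, which makes triglycerides, split the same way, at 10.04 to 10.41 in wild-type arrays, 9.78 in GR-null 17 and 10.58 to 10.81 in the others. Pparg overlapped between groups and was highest in GR-null 17, while Scd3, Mc5r and Elovl3 lay below the array median on all arrays. The part of sebaceous cells in the result was not tested.

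**Figure D5:**
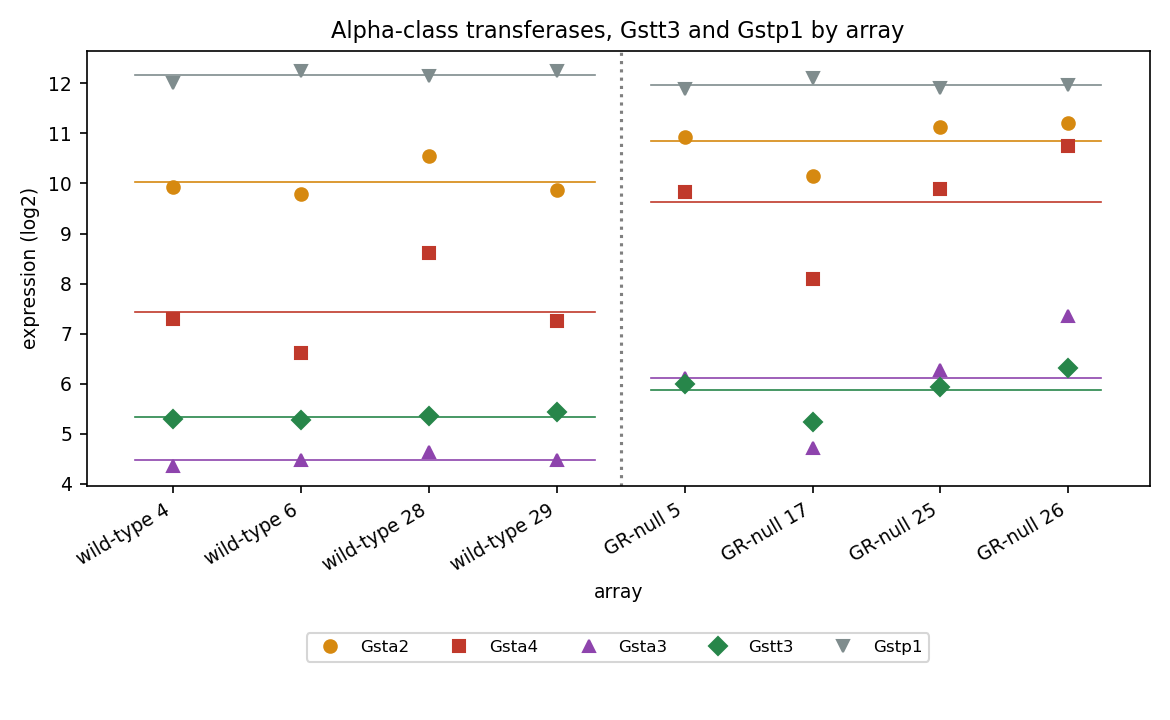
Expression (log2) of the alpha-class transferases Gsta2, Gsta4 and Gsta3, the theta-class Gstt3 and the pi-class Gstp1 on each array, with horizontal lines at the group means (n = 4). In GR-null 17 the alpha-class genes and Gstt3 lie below the other GR-null arrays, while Gstp1 stays between 11.89 and 12.26 on all 8.

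In the pi and mu classes 0 of 9 members passed the threshold, and Gstp1, Gstm1, Gstm2 and Gstm5 lay above the array median on all 8 arrays. Gstp1, the pi-class enzyme long known in epidermis, read 12.02, 12.26, 12.14 and 12.25 in wild-type and 11.89, 12.10, 11.91 and 11.98 in GR-null arrays. Its difference was -0.20 ± 0.09 log2 (95% interval -0.39 to -0.00, adjusted p = 0.222), and the groups overlapped through GR-null 17. Gstp3, its neighbour on chromosome 19, did not overlap between groups at a difference of -0.25 log2 (adjusted p = 0.159). In the mu class 0 of 7 members were past the threshold, with log2 fold changes from -0.08 to 0.34. Gstm5 gave the largest of these, 0.34 ± 0.13 log2 (adjusted p = 0.163). Gstm2 differed by -0.01 log2 (95% interval -0.31 to 0.29) and Gstm1 by 0.05 (-0.23 to 0.32). Mu-class genes are close relatives in 1 run on chromosome 3, and Gstm1 and Gstm3 were read at probe sets that can take up related transcripts. In the theta class, Gstt1 and Gstt2 differed by 0.03 (-0.31 to 0.37) and 0.00 log2 (-0.35 to 0.36).

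The sulfotransferase gene past the threshold was Sult1a1, which acts on phenols and on hormones such as oestrogens and iodothyronines. It read 8.44, 8.47, 7.95 and 8.39 in wild-type and 7.50, 7.83, 7.48 and 7.51 in GR-null arrays. Wild-type 28 was the low array of its group and GR-null 17 the high array of the other, and they did not cross. Sult1a1 fell by 0.73 ± 0.14 log2 (1.66-fold, adjusted p = 0.0303). Its call held without wild-type 28 or GR-null 17 (0.0226 and 0.0109) and ended without each of the other 6 arrays, at 0.0600 to 0.106, and with the muscle covariate (-0.46 log2, adjusted p = 0.394). Sult5a1 read 7.82 to 8.40 in wild-type and 7.74 to 7.89 in GR-null arrays, and its difference was -0.37 log2 (adjusted p = 0.134). It passed the threshold without wild-type 4 (0.0391). The other 10 sulfotransferases lay below the array median on all arrays, with differences of at most 0.13 log2 in size.

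The genes of conjugation with glucuronic acid could be followed only in part. All 8 Ugt2 members lay below the array median on all arrays, and 0 were past the threshold, with log2 fold changes from -0.20 (Ugt2b38) to 0.17 (Ugt2b34). Ugt2b36 differed by 0.00 log2 (-0.21 to 0.21). The Ugt1a genes share their last exons, and their 3 probe sets name several genes at once, so they are no members. Those read 10.01 against 10.23, 10.37 against 10.64 and 8.49 against 9.06 log2 on average in wild-type and GR-null arrays. The last of these differed by 0.57 ± 0.15 log2, with an adjusted p over all probe sets of 0.0684, and the others by 0.22 and 0.27. So glucuronosyltransferase probe sets above the array median were those of the Ugt1a locus.

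Partners of these enzymes were taken from 5 lists of other genes of the same pathways, chosen by function with earlier results of these data known. Of 49 measured, 3 rose, 1 fell and the other 45 missed the threshold, where 1.40% of all genes rose and 1.56% fell. The median log2 fold change of the partners was 0.07. Papss1, which makes the activated sulfate that sulfotransferases use, read 10.09, 10.16, 10.26 and 10.31 in wild-type and 10.73, 10.64, 10.75 and 10.82 in GR-null arrays. It rose by 0.53 ± 0.08 log2 (adjusted p = 0.0161), the opposite direction to Sult1a1. It held its call in 7 of the 8 fits without 1 array. Of the other cofactor genes, among them those of glutathione synthesis, 0 of 7 were past the threshold.

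Srxn1, the sulfiredoxin that restores oxidised peroxiredoxins and a target of the stress factor Nrf2, read 7.09, 7.66, 7.70 and 7.40 in wild-type and 6.51, 6.46, 6.19 and 6.32 in GR-null arrays. It fell by 1.09 ± 0.14 log2 (adjusted p = 0.0108) and held its call in all 8 fits without 1 array. It was 1 of 12 in the list of receptors and Nrf2 pathway genes. The aryl hydrocarbon receptor gene Ahr and its target Tiparp did not overlap between groups, with GR-null arrays higher by 0.46 and 0.36 log2, and missed the threshold (adjusted p = 0.0566 and 0.0623). Arnt, the partner with which Ahr binds DNA, also did not overlap, with GR-null arrays lower, at -0.34 log2 (adjusted p = 0.131). Keap1, the inhibitor of Nrf2, differed by -0.42 log2 with overlapping groups (adjusted p = 0.105). Others of this list also overlapped and missed the threshold. Among them were Ahrr at 0.03 log2, Nfe2l2, the gene of Nrf2, at 0.30, Txnrd1 at -0.09 and Hmox1 at -0.18.

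Abcc3, which exports glucuronides and other conjugates, read 5.98, 6.38, 6.24 and 6.20 in wild-type and 7.49, 6.72, 7.40 and 7.10 in GR-null arrays. It rose by 0.98 ± 0.17 log2 (adjusted p = 0.0235), as 1 of 8 efflux transporters, and held its call in 2 of the 8 fits without 1 array. Hpgds, a sigma-class glutathione transferase that makes prostaglandin D2, rose by 0.79 ± 0.15 log2 (adjusted p = 0.0314), as 1 of 11 other conjugation enzymes, and held its call in 1 of those 8 fits. GR-null 17 was the lowest GR-null array in both. With the muscle covariate all 4 partner calls ended, with adjusted p of 0.123 to 0.414, at differences of -1.09 log2 for Srxn1, 0.44 for Papss1, 0.53 for Abcc3 and 0.43 for Hpgds. Of 10 electron donors and hydrolases 0 were past the threshold, and the smallest p was that of the carbonyl reductase Cbr3, at -0.35 log2 (adjusted p = 0.0772).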

How the data were processed

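Affymetrix whole-genome mouse arrays were hybridised with RNA of 8 dorsal skin samples. The deposited values are log2 expression per probe set, made with RMA per the submitters' processing notes. Later filters and the version are not stated there. RMA makes the distributions of arrays alike, so a shift of most genes could not be seen. No detection calls were used, and the number of arrays limits the precision.

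After removal of 64 control probe sets, 45037 entered the fit. The platform annotation gave 1 gene symbol for 34945, several for 932 and none for 9160. The members had 128 probe sets of their own, and 20 members had more than 1. Of the 98 members, 97 were found under the same symbol among protein-coding genes of RefSeq's GRCm38.p6 table, which served for gene order. Limma 3.58.1 in R 4.3.3 was fitted to all probe sets with genotype as the single term (lmFit, eBayes, two-sided), read at 1 probe set per gene and adjusted by Benjamini-Hochberg over 18194 genes at a threshold of 0.05. The fit was tested on simulated data.

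The members and lists were chosen with earlier results of these data known. The named members were all those past the threshold, the 2 of each family with the highest mean, that with the smallest p, and those whose groups did not overlap at 1.5-fold or more. Other genes were named in gene order or after their values were seen. The Y-linked level (Eif2s3y and Ddx3y), the muscle list and the adipocyte list, the last added after seeing the data, were tried as covariates.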

Additional observations from a re-analysis of the deposited data

Results flagged for a closer look

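In 4 of the 60 groups of 4 arrays examined for the named members, 1 array stood apart from the other 3 by more than Dixon's 95% critical value allows, and chance gives about 1 in 20 such groups. In Sult1a1, GR-null 17 read 7.83 against 7.48 to 7.51 in the other GR-null arrays, a gap of 0.922 of the group's range. Wild-type 28 stood apart in the same gene, at 7.95 against 8.39 to 8.47 and a gap of 0.839. In Gstt1, wild-type 29 read 7.03 against 6.49 to 6.58 (0.8293). In Ugt2b36, wild-type 29 read 4.36 against 4.10 to 4.14 (0.847), near the floor of the array.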

How the results depend on the processing

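No named member past the threshold with all arrays changed direction under any alternative. Leaving out 1 array gave 1 to 13 called members and 79 to 1640 called genes. Array weights gave 14 members and 1944 genes, the muscle covariate 2 and 113, and a threshold of 0.01 gave 1 and 46. Called genes numbered 829 above the median level, 297 at 1.5-fold or more, 884 with the mean of a gene's probe sets and 1832 with the probe set of largest variance. Above the median level, where fewer genes are tested, the median log2 fold change was -0.24 over the 21 members left. By family it was -0.50 in Cyp2 (5 members), -0.74 in Ces (3) and -1.60 in Fmo (2). For Gsto it was -1.30, the value of Gsto1 alone, and for Sult -0.55, over Sult1a1 and Sult5a1. With the muscle covariate it was -0.0756 over members, -0.15 in Cyp2, 0.33 in Gsta, -0.0607 in Ugt and -0.0912 in Sult; the cause was not tested. Without probe sets ending in _x_at or _s_at, Gsto gave -0.29, since Gsto1 was then read at its other probe set. All other medians and the count above the array median (12 to 19) moved by less than the spread between arrays or 1.5-fold. The adipocyte covariate, added after seeing the data, kept all 7 calls and added Ces2g. No paired analysis was possible because the labels do not give the litters.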
